A study of Mus musculus with 12 samples.

Results

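This section describes 10 genes for checkpoint and costimulation molecules in sorted synovial innate lymphoid cells (ILCs) of mice. The members are Pdcd1, Ctla4, Tigit and Lag3, which encode inhibitory receptors, Cd274, which encodes the ligand PD-L1, Icos, Tnfrsf4, Tnfrsf9 and Tnfrsf18, which encode costimulatory receptors, and Cd83, which encodes an activation-associated surface protein. They were chosen by symbol from the 32285 genes in the feature lists of the 10x Genomics matrices, and all 10 were found.

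All animals carried the genotype Il5 wt/Cre; R26 tdTom/tdTom (strain R5 x R26tdTomato, 8 to 10 weeks old), in which Cre made from the Il5 locus switches on tdTomato. The labelled cells are therefore those that expressed Il5 at some time, and healthy controls carry the same alleles. Cells came from ankle and wrist joints and were sorted as viable, positive for CD45 and tdTomato, and negative for CD3, both T cell receptor types, CD11b and GR-1. In experiment 1, 3 wells held cells of untreated healthy mice, of mice with serum transfer arthritis (STA), and of mice with STA + Il23mc (titled STA + IL23), with 3 hashtags a well that the labels name as 3 mice. In experiment 2, 1 well held 1 hashtag each for healthy, STA (mild) and STA (severe), and the number of animals behind each is not given in the sources used here. Since the 3 conditions of experiment 1 were run in separate wells, effects of the well and of the condition cannot be told apart. The p-values measure the spread between the 3 hashtags of a well. The protocol speaks of cells pooled from 4 animals a well, which the 3 hashtags do not match.

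Checkpoint receptors such as PD-1 (Pdcd1) and CTLA-4 dampen lymphocyte activation: PD-1 binds PD-L1 and PD-L2 and recruits phosphatases, and CTLA-4 competes with CD28 for CD80 and CD86. ICOS, a CD28 relative, and the TNF receptor superfamily members OX40 (Tnfrsf4), 4-1BB (Tnfrsf9) and GITR (Tnfrsf18) do the opposite, the last of these groups through TRAF adaptors and NF-kB. These molecules are best known from T cells. Group 2 ILCs (ILC2s), tissue lymphocytes that make IL-5 and IL-13, are known to carry ICOS and GITR, and PD-1 is known to restrain them.

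Several members are neighbours in the genome (positions on GRCm38 from GENCODE M21). Ctla4 (1:60887000-60915832, plus strand) ends 62.1 kb before Icos (1:60977927-61000320, plus), and Pdcd1 (1:94038305-94052553, minus) is on the same chromosome. Tnfrsf4 (4:156013843-156016612, plus) ends 9.55 kb before Tnfrsf18 (4:156026164-156028895, plus), and Tnfrsf9 (4:150914562-150946102, plus) lies 5.07 Mb before them. Cd274 (19:29367455-29388095, plus), Cd83 (13:43784775-43803132, plus), Tigit (16:43648867-43664146, minus) and Lag3 (6:124904361-124911705, minus) are alone among the members on their chromosomes.

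The 250 bases before the RefSeq start (GRCm38.p6) are printed for Pdcd1, Ctla4, Tnfrsf9 and Tnfrsf4, and for Tnfrsf18 as the close neighbour of Tnfrsf4. A promoter was matched for 7 of the 10 members, and Tnfrsf9 had 2 starts, of which the second is shown. Each sequence reads 5′ to 3′ on the gene's strand, and capitals mark a match to TGANTCA (AP-1 type), GGAAAA (NFAT core) or an NF-kB type motif, searched on both strands.
Pdcd1, 1:94052554-94052803, minus strand: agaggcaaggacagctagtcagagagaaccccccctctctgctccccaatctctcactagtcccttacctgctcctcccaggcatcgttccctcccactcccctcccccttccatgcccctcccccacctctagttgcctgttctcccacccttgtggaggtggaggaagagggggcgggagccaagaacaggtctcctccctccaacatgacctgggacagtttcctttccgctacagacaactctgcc
Ctla4, 1:60908775-60909024, plus strand: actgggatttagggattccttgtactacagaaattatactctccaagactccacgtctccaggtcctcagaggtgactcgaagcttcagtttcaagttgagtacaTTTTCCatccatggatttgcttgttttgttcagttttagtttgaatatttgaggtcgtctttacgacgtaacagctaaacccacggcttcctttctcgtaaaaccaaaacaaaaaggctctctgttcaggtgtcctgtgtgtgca
Tnfrsf9, second start, 4:150927749-150927998, plus strand: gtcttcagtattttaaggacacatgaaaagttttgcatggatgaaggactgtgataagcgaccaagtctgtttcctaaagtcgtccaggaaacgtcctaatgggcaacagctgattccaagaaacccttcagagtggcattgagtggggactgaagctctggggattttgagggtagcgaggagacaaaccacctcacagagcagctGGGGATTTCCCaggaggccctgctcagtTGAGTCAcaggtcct
Tnfrsf4, 4:156013445-156013694, plus strand: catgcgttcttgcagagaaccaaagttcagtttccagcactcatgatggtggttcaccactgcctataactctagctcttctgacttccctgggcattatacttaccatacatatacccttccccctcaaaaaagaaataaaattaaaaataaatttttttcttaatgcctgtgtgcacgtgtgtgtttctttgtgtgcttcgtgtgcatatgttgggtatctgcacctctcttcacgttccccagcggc
Tnfrsf18, 4:156026072-156026321, plus strand: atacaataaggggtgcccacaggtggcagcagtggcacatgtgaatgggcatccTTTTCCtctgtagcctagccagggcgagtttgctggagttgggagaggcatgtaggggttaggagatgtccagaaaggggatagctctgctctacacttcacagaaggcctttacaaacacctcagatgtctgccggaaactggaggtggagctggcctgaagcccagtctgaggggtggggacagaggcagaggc
Ctla4 and Tnfrsf18 held 1 GGAAAA match each, read as TTTTCC on the printed strand, and the second Tnfrsf9 start held 1 TGAGTCA and, upstream of it, 2 overlapping NF-kB type matches. The first Tnfrsf9 start, not shown, held 1 GGAAAA match and no match to the other motifs. The Pdcd1 and Tnfrsf4 windows held no match. Of the other matched members, not shown, Cd274 held no match and Tigit 1 GGAAAA match. Over all 32851 RefSeq mouse promoters of the same length, 20.4% held GGAAAA, 6.75% held TGANTCA and 7.25% held the NF-kB type motif. A match is only a run of letters, and Tnfrsf4 and Tnfrsf18, which lie side by side, shared none.

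The authors' table of kept cells gave an annotation (ILC2-1, ILC2-2, ILC2-3, ILC3-1, ILC3-2 or Precursors) to 4491 of the 16045 barcodes in the 4 ILC wells, and the UMI totals of all 4491 matched the matrices. That table covers the healthy and STA + Il23mc wells and the healthy hashtag of experiment 2. Cells of the experiment 1 STA well and of the arthritic hashtags of experiment 2 therefore received a class from their 15 nearest annotated neighbours. When annotated wells were treated the same way, 73.1 to 99.2% of ILC2 cells were recovered, but only 12.7 to 95.1% of ILC3 cells, so ILC3 sums of the STA well are not compared. Between wells, 21 barcodes were shared. In the sums below, cells with any Cd3d or Cd3e UMI were kept apart, and counts were added per mouse. Values are CPM, a gene's UMIs scaled by the total UMIs of the sum.

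The ILC2 sums of experiment 1 held 128 to 412 cells and 528788 to 1996296 UMIs a mouse. The label fitted its markers there: Gata3, the master regulator of ILC2s, lay at 1149 to 1434 and Il1rl1, the IL-33 receptor, at 423 to 800 CPM in healthy mice. The name ILC3 rests on less. In healthy ILC3 sums Il1rl1 (30.5 to 109) and Il5 (119 to 240) were lower than in ILC2 sums, but Gata3 was still at 919 to 982. Il23r lay between 0 and 2.56, and the summed ILC3 list was lower in the ILC3 sums (386 to 587) than in the ILC2 sums (605 to 757). ILC3 is used below as the authors' name for these cells.

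In ILC2 cells, STA came with more transcript of the inhibitory receptor gene Pdcd1, of the TNF receptor family members Tnfrsf4 and Tnfrsf9, and of Cd83. Of the 10 members 8 passed the filter on low counts, whose floor was 9.71 CPM. Ctla4 passed only through its arthritic mice, so that it had to differ, and it is described without a test. Of the other 7, 4 rose from healthy to STA and none fell. Over all 7099 genes tested, 4.1% were called, 2.44% as higher and 1.66% as lower. The 3 mice of each group did not overlap for 5 of these 7 members, against 23.0% of all genes, and their median log2 change was 1.28 against -0.003 for all genes. Since the members were chosen with earlier results of these data known, here and below the shares of all genes are given as a description. Calls are from edgeR's quasi-likelihood test with Benjamini-Hochberg adjusted p under 0.05 over all genes.

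**Figure D1:**
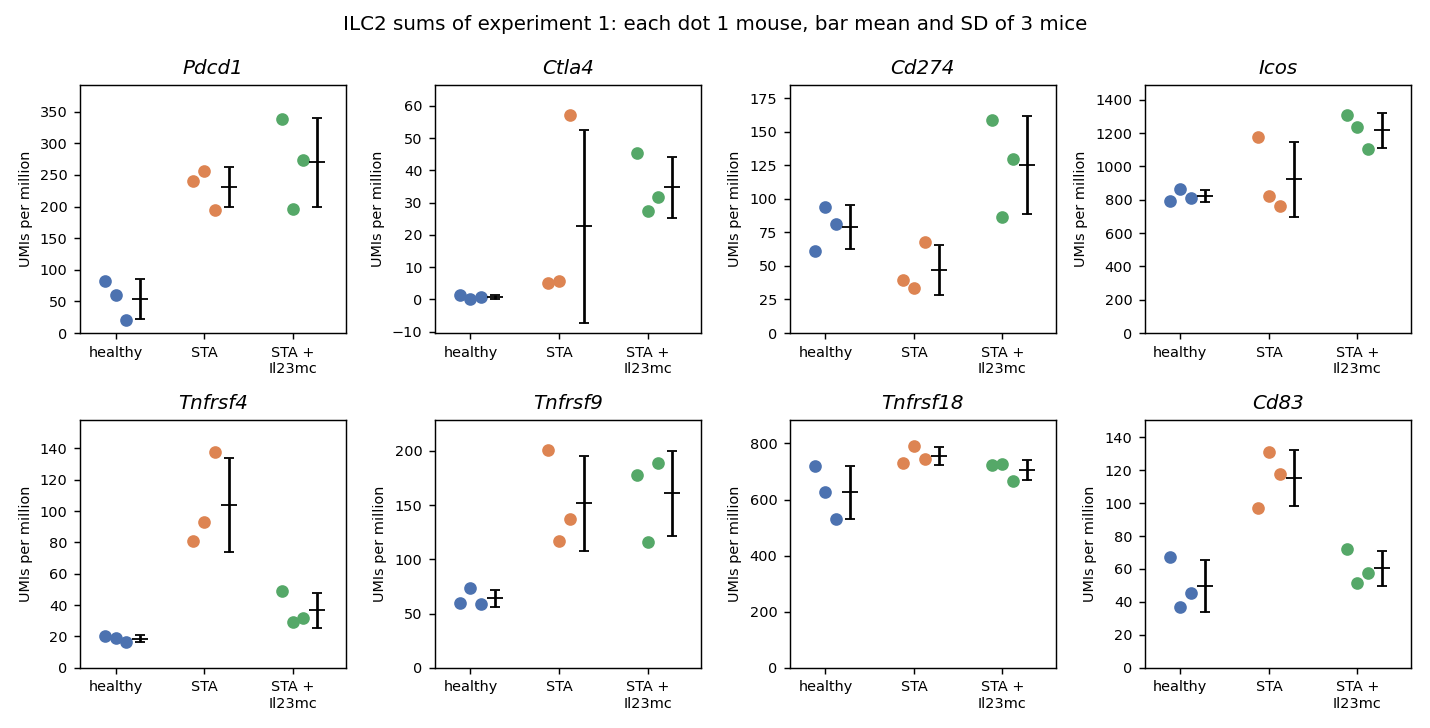
CPM (y axis) of 8 members in the ILC2 sums of experiment 1, with 1 dot for each of the 3 mice in each condition (x axis) and a bar for mean and SD. For Pdcd1, Ctla4, Tnfrsf4, Tnfrsf9, Tnfrsf18 and Cd83 the 3 STA mice lie above the 3 healthy mice, for Tnfrsf18 only narrowly. For Ctla4 the STA mean rests on 1 mouse at 57.3.

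Pdcd1 was at 81.6, 59.6 and 19.9 CPM in the 3 healthy mice, 241, 257 and 195 in the STA mice, and 338, 197 and 274 in the STA + Il23mc mice. Every arthritic mouse was above every healthy one, and both arthritic groups overlapped. The STA mean of 231 ± 32.0 (SD, n = 3) against 53.7 ± 31.3 gave a log2 change of 2.19 (SE 0.301, adjusted p = 0.000346). STA + Il23mc against healthy gave 2.47 (SE 0.304, adjusted p = 3.32e-05), and against STA 0.28 (adjusted p = 0.697). All 3 comparisons share mice, so they do not support one another.

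Ctla4 was nearly absent from healthy ILC2 cells, with 1, 0 and 1 UMIs in the 3 mice. The STA mice held 5, 7 and 59 UMIs (5.2, 5.7 and 57.3 CPM), and the STA + Il23mc mice held 24, 34 and 29 (45.4, 27.3 and 31.6 CPM). The third STA mouse stands apart: 47 of its 59 UMIs were in 10 of 197 cells, and 13 were in 1 cell. Summed over mice, the ratio of STA to healthy was 42.9 (95% exact interval 11.4 to 361, counting error only), and without the third STA mouse 10.7 (2.37 to 98.0).

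For STA + Il23mc against healthy, the Ctla4 ratio over summed UMIs was 62.9 (16.9 to 527). Against STA the fitted log2 change was 0.65 (SE 0.583), and without the third STA mouse it was 2.68. In the STA + Il23mc well, Ctla4 was abundant in cells with Cd3 UMIs, which over all annotations held 6196 Ctla4 UMIs along with 10553 of Il22 and 8083 of Il17a. The ILC2 sums of that well held 87 Ctla4, 99 Il22 and 63 Il17a UMIs, while healthy ILC2 sums held 2, 0 and 20. What part of the ILC2 Ctla4 count comes from RNA of other cells was not tested.

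Tigit and Lag3, the remaining inhibitory receptors, were at the limit of detection and were not tested. ILC2 sums held 5, 2 and 3 Tigit UMIs in all over the healthy, STA and STA + Il23mc mice. Lag3 had 0, 5 and 0 UMIs, and all 5 came from the second STA mouse. Differences in these genes were not detectable at this depth.

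For Cd274 (PD-L1), healthy mice had 61.2, 93.7 and 81.3 CPM, STA mice 39.3, 33.5 and 67.9, and STA + Il23mc mice 159, 86.8 and 130. The STA and healthy mice overlapped, and the change of -0.71 (SE 0.264) did not pass (adjusted p = 0.166), though it did without the third STA mouse (-1.09, adjusted p = 0.0269). From STA to STA + Il23mc Cd274 rose with a log2 change of 1.46 (SE 0.264, adjusted p = 0.00407), from 46.9 ± 18.4 to 125 ± 36.3 (SD, n = 3), with no overlap. Against healthy the same mice differed by 0.75 (SE 0.247, adjusted p = 0.067), and the alternative DESeq2 called it (adjusted p = 0.0456).

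From STA to STA + Il23mc, 1 of the 7 members other than Ctla4 rose (Cd274) and 2 fell (Tnfrsf4 and Cd83), against 2.65% of all genes called (1.83% higher, 0.817% lower). The mice did not overlap for 4 of these 7, against 20.1% of all genes, and their median change was 0.16, against 0 for all genes. From healthy to STA + Il23mc, 4 of the 7 rose (Pdcd1, Icos, Tnfrsf4 and Tnfrsf9), where 9.62% of all genes were called, 6.03% as higher and 3.59% as lower. There, 4 of the 7 did not overlap, against 27.9% of all genes.

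Icos was at 795, 865 and 810 CPM in healthy mice, 1178, 825 and 765 in STA mice, and 1310.5, 1238 and 1103 in STA + Il23mc mice. The STA mice spread over both other groups, with a change of 0.23 from healthy (SE 0.137, adjusted p = 0.43). All 3 STA + Il23mc mice were above the healthy mice, with a mean of 1217 ± 105 against 823 ± 36.5 (SD, n = 3). That change of 0.71 (SE 0.138) passed (adjusted p = 0.00228), and it did not when 1 rule set hashtags and classes in every well (adjusted p = 0.0794) or when all cells of a hashtag were summed (adjusted p = 0.595). The step from STA to STA + Il23mc was 0.48 (SE 0.138, adjusted p = 0.0779).

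Tnfrsf4 (OX40) was at 20.4, 19.0 and 16.3 CPM in healthy mice. The STA mice had 80.7, 93.2 and 138, and the STA + Il23mc mice 49.2, 28.9 and 31.6. The 3 groups did not overlap at all. Tnfrsf4 rose in STA, with a log2 change of 2.55 (SE 0.25, adjusted p = 1.3e-05) and was lower in STA + Il23mc than in STA by -1.50 (SE 0.242, adjusted p = 0.00145). STA + Il23mc was above healthy by 1.06 (SE 0.289, adjusted p = 0.0261), a call lost without the second or the third healthy mouse or the first STA + Il23mc mouse (adjusted p = 0.0682, 0.0989 and 0.106). It was also lost with 1 rule for hashtags and classes (0.92, adjusted p = 0.118), and with all cells of a hashtag the direction turned (-0.78, adjusted p = 0.304).

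Tnfrsf9 (4-1BB) was at 59.9, 73.1 and 58.7 CPM in healthy mice, 201, 117 and 137 in STA mice, and 178, 116 and 189 in STA + Il23mc mice. Both arthritic groups lay wholly above the healthy group and overlapped each other. The change was 1.28 for STA (SE 0.214, adjusted p = 0.00167) and 1.44 for STA + Il23mc (SE 0.217, adjusted p = 0.000261), both against healthy. Between the arthritic groups it was 0.16 (adjusted p = 0.795).

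Tnfrsf18 (GITR), the neighbour of Tnfrsf4, was at 720, 627 and 531 CPM in healthy mice, 730, 791 and 745 in STA mice, and 722, 728 and 665 in STA + Il23mc mice. The STA mice lay just above both other groups, with gaps small beside the spread within the healthy group, and healthy and STA + Il23mc mice overlapped. Its changes were 0.34 (SE 0.126, adjusted p = 0.162) for STA and 0.33 (adjusted p = 0.132) for STA + Il23mc against healthy, and neither passed. The STA + Il23mc mice were -0.02 from STA (adjusted p = 0.97).

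Cd83 was at 67.6, 37.1 and 45.1 CPM in healthy mice, 97.3, 131 and 117 in STA mice, and 71.9, 51.4 and 57.8 in STA + Il23mc mice. The STA group was above both others without overlap. Cd83 rose by 1.34 in STA (SE 0.208, adjusted p = 0.000932) and was lower in STA + Il23mc by -0.89 (SE 0.211, adjusted p = 0.0288). That last call was lost in 7 alternatives. STA + Il23mc against healthy gave 0.45 (adjusted p = 0.26).

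**Figure D2:**
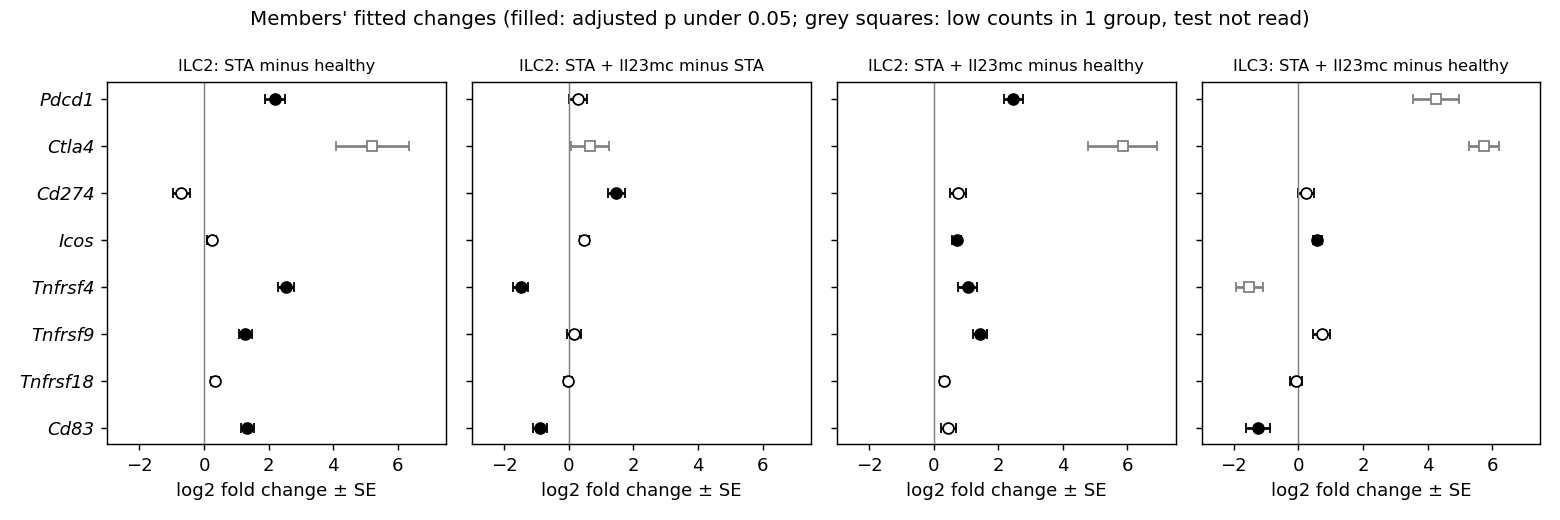
Fitted log2 fold change with its SE (x axis) of 8 members (y axis) in 4 comparisons, filled where the edgeR adjusted p was under 0.05; grey squares are genes with low counts in 1 of the groups, whose test is not read. In ILC2 cells Pdcd1 lies at 2.19 and 2.47 against healthy, while Tnfrsf4 is at 2.55, -1.50, 1.06 and -1.52 from left to right.

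Markers of other cells moved with some of these results. The mast cell list summed to 3.61 to 20.04 CPM in healthy and 24.3 to 1895 in STA ILC2 sums, with the peak in the second STA mouse, where Mcpt4 alone reached 737. H2-Aa, an MHC class II gene, was at 1.00 to 9.03 in healthy, 29.0 to 139 in STA and 52.4 to 117 in STA + Il23mc sums. With cells carrying markers of other types left out, Pdcd1 (2.38), Tnfrsf4 (2.56), Tnfrsf9 (1.20) and Cd83 (1.27) still rose in STA against healthy (adjusted p = 0.000233, 1.22e-05, 0.00409 and 0.000818). With all cells of a hashtag summed and no class used, 0 of the 8 members passed in STA against healthy with edgeR, where 16 of all genes did, and 5 members had an unadjusted p under 0.05. The T cell list summed to 762 to 962 CPM in healthy, 991 to 1040 in STA and 582 to 830 in STA + Il23mc ILC2 sums, with Cd3d and Cd3e at 0 since such cells were set apart, and its part in the results was not tested.

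Within the annotated classes, Pdcd1 was concentrated in ILC2-3. In healthy mice it was at 257, 143 and 109 CPM in ILC2-3, at 42.7, 30.2 and 1.9 in ILC2-2, and at 18.2, 0 and 0 in ILC2-1. ILC3-1 sums had 0, 21.3 and 1.3, ILC3-2 sums 0, 24.2 and 1.2, and Precursors 14.1, 0 and 0. The lowest ILC2-3 mouse was above the highest mouse of each other class, and the other 5 classes overlapped. The annotation was made from these cells' transcripts, so no test between classes was run.

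Other members had their own order across classes in healthy joints. Tnfrsf9 was at 227, 211 and 269 CPM in ILC2-3 and 200.5, 181 and 141 in ILC3-2, against 12.6, 14.1 and 23.0 in ILC2-2 and 14.98, 9.14 and 16.1 in ILC3-1. Icos was highest in ILC3-2, at 2229, 2066 and 2164, followed by ILC2-3 at 1459, 1488 and 1471 and ILC2-2 at 738, 654 and 809. It was at 464, 594 and 586 in ILC3-1 and 392, 396 and 487 in ILC2-1. Tnfrsf4 was at 194, 231 and 131 in ILC3-2, above 74.9, 51.8 and 26.8 in ILC3-1 and 53.8, 33.8 and 20.7 in ILC2-3, which overlapped. Cd83 was at 283, 141 and 137 in ILC3-2 and 126, 88.4 and 77.7 in ILC2-3, with 14.98, 97.5 and 46.9 in ILC3-1. For Tnfrsf4 and Cd83 the lowest ILC3-2 mouse was above the highest mouse of these other classes.

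**Figure D3:**
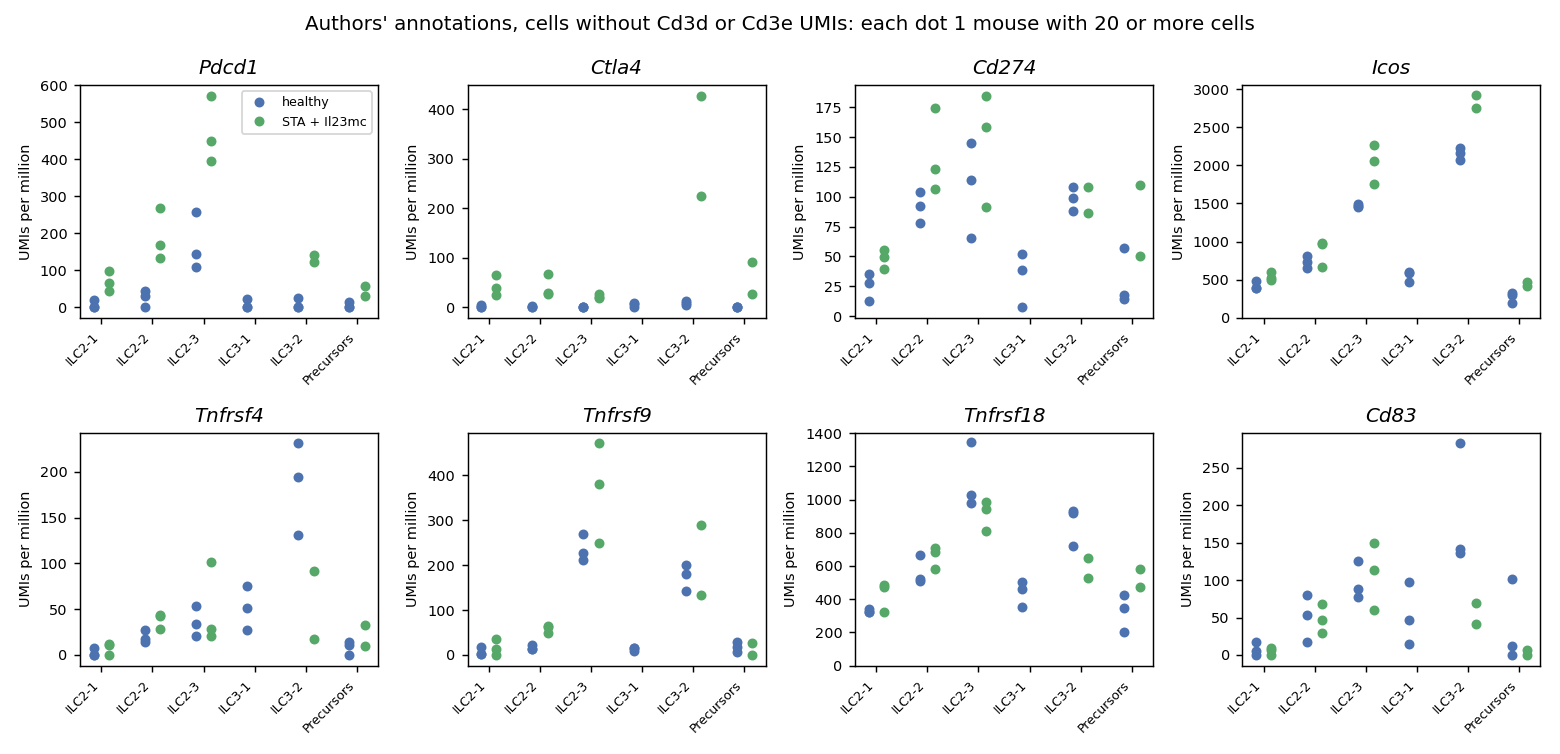
CPM (y axis) of members in each annotated class (x axis), with 1 dot for each mouse of the healthy and STA + Il23mc wells of experiment 1. Healthy Pdcd1 is highest in ILC2-3 (109 to 257), and ILC3-2 Tnfrsf4 is at 131 to 231 in healthy mice and 17.3 and 91.4 in the 2 STA + Il23mc mice with enough cells.

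Pdcd1 was also higher in STA + Il23mc than in healthy mice inside each ILC2 class. It was at 99.2, 43.4 and 64.4 CPM in ILC2-1 and at 267, 134 and 168 in ILC2-2, in both classes above every healthy mouse. There it passed the filter only through the STA + Il23mc mice, as did Ctla4, Tnfrsf9 and Tnfrsf4 in ILC2-2, so no test is given. In ILC2-3, where all mice were above the filter's floor, Pdcd1 was at 572, 395 and 450 (log2 change 1.61, adjusted p = 0.0014) and Icos rose by 0.57 (adjusted p = 0.0192), against 7.92% of all genes called. In ILC2-2, where 8.64% of all genes were called, Icos, Tnfrsf18 and Cd274 did not pass (adjusted p = 0.158, 0.181 and 0.084). Tnfrsf9 in ILC2-2 was at 49.9, 62.7 and 63.8, above all healthy mice. In ILC2-3, where it could be tested, Tnfrsf9 overlapped between the groups and did not pass (0.73, adjusted p = 0.0847). Tnfrsf18, Cd83 and Cd274 did not pass there either (adjusted p = 0.631, 0.777 and 0.575). ILC2-3 made up 165 of 818 healthy and 184 of 629 STA + Il23mc ILC2 cells. The part of this in the changes of the whole ILC2 sums was not tested. These splits by class were added after the data were seen.

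In ILC3 sums, the healthy and STA + Il23mc wells were compared. At these depths the filter's floor was 31.8 CPM. Ctla4 and Pdcd1 passed it only through the STA + Il23mc mice and Tnfrsf4 only through the healthy mice, so they are described without a test. Of the other 5 members, 1 rose (Icos) and 1 fell (Cd83), where 9.98% of all 3728 genes were called, 5.95% higher and 4.02% lower. The mice did not overlap for 3 of the 5, against 28.1% of all genes. The STA + Il23mc sums were small, with 52, 41 and 21 cells after cells with Cd3 UMIs were set apart, against 85, 148 and 430 in healthy mice. They also differed in class mix: ILC3-2 made up 96 of 114 cells, against 415 of 663 in healthy mice. The part of this mix in the ILC3 results was not tested.

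Ctla4 in ILC3 sums was at 11.4, 9.0 and 2.5 CPM in healthy mice and 429, 175 and 186 in STA + Il23mc mice. Pdcd1 was at 0, 23.0 and 1.2 and at 120, 117 and 116.5. The arthritic mice were above the healthy mice for both genes. The cells with Cd3 UMIs set apart from these STA + Il23mc sums held 3498 of 3580, 1514 of 1541 and 26 of 42 Ctla4 UMIs. What part of the remaining Ctla4 count comes from other cells or their RNA was not tested. Icos went from 1690, 1449 and 1679 to 2752, 2185 and 1968, a change of 0.58 (SE 0.136, adjusted p = 0.0116). The Icos call was lost without the second healthy mouse (0.49, adjusted p = 0.0813) and without the first STA + Il23mc mouse (0.43, adjusted p = 0.0942). With cells holding Cd3 UMIs kept in, the change was 0.09 (adjusted p = 0.681).

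Tnfrsf4 in ILC3 sums was at 158, 156 and 99.2 CPM in healthy mice and at 15.7, 71.3 and 58.2 in STA + Il23mc mice, where it rested on 3, 11 and 5 UMIs. The groups did not overlap, and the fitted log2 change was -1.52, or -0.93 without the first STA + Il23mc mouse. Cd83 went from 201, 123 and 109 to 68.0, 32.4 and 69.9 (13, 5 and 6 UMIs), a change of -1.26 (SE 0.366, adjusted p = 0.0407). Leaving out any 1 of the STA + Il23mc mice ended that call, with adjusted p between 0.077 and 0.189.

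Cd274, Tnfrsf9 and Tnfrsf18 did not pass in ILC3 sums. Cd274 was at 77.7, 72.9 and 80.7 CPM in healthy and 88.9, 84.3 and 93.2 in STA + Il23mc mice (0.25, adjusted p = 0.665). Tnfrsf9 was at 144, 109 and 103 and at 262, 110 and 163 (0.72, adjusted p = 0.127). Tnfrsf18 was at 802, 725 and 610 and at 513, 623 and 838 (-0.08, adjusted p = 0.868). In the ILC3 sums of STA + Il23mc mice the neutrophil list summed to 11.6 to 387 CPM, against 0 to 2.56 in healthy mice, and H2-Aa was at 644 to 966 against 11.4 to 37.1. Their part in the ILC3 results was not tested; with cells carrying markers of other types left out, Cd83 was not called (adjusted p = 0.0967).

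The change from healthy to STA + Il23mc was also compared between ILC3 and ILC2 cells. In a fit of both classes over the same 6 mice with the mouse as a block, 29 of 6838 genes differed (0.424%). Tnfrsf4, which was higher in ILC2 and lower in ILC3 cells, had a fitted difference of -2.67 on the log2 scale (SE 0.465). It was partly below the floor of the ILC3 comparison, so its test is not read. Cd83 differed by -1.81 (SE 0.353, adjusted p = 0.00892). Icos, Tnfrsf9, Tnfrsf18 and Cd274 did not pass (adjusted p = 0.8, 0.361, 0.439 and 0.677). Pdcd1 at 1.26 (SE 0.537) and Ctla4 at -0.72 (SE 0.76) were also partly below that floor, and their tests are not read.

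Cells with Cd3d or Cd3e UMIs, which the CD3-negative sort was meant to leave out, were common in the STA + Il23mc well. Among ILC3-annotated cells they made up 410 of 462 (88.7%, 95% Wilson interval 85.5 to 91.3), 180 of 221 (81.4%, 75.8 to 86.0) and 7 of 28 (12.7 to 43.4%) in the 3 mice. In healthy mice they were 0 of 85, 2 of 150 and 33 of 463, and 0 of 85 allows a share of up to 3.53%. Intervals cover counting error only.

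Within the ILC3 annotation of the STA + Il23mc mice, these cells held 3498 of 3580, 1514 of 1541 and 26 of 42 Ctla4 UMIs. They held 93.0%, 88.5% and 27.6% of all UMIs of that annotation in the same mice. Cells with Cd3 UMIs of all annotations in that well held 10553 Il22, 8083 Il17a and 2912 Trdc UMIs, and 0 of Foxp3. The ILC3 annotation of that well covers cells with T cell transcripts.

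Cells with and without Cd3 UMIs were compared within the 4 mice that had at least 20 of each, the third healthy mouse and all 3 STA + Il23mc mice. The split took all annotations together, so its sides differ in class as well. In the first STA + Il23mc mouse, 410 of 475 cells with Cd3 UMIs were ILC3-annotated, against 52 of 191 without. Median UMIs per cell were 4373 to 5497 with Cd3 UMIs and 3455 to 4062 without in the STA + Il23mc mice. In ILC3-annotated cells without Cd3 UMIs, Ctla4 was at 175 to 429 CPM in these mice. The part of class and depth was not tested. Of the 5 members above the filter's floor of 7.73 CPM in every sum, 1 fell (Tnfrsf18), where 7.38% of all 7468 genes were called, 3.12% higher and 4.26% lower. Ctla4 was at 8.0 in Cd3 cells of the healthy mouse and 1526, 1196 and 357 CPM in those of the STA + Il23mc mice, against 1.9, 140, 46.7 and 42.3 without. The healthy value rests on 2 UMIs in 38 cells (95% interval 0.971 to 29.0 CPM), which does not set it apart from the 1.9 CPM without Cd3 UMIs. In the 3 STA + Il23mc mice Ctla4 was higher in the cells with Cd3 UMIs. Tnfrsf18 was lower in 4 of 4, at 437, 146, 172 and 511 against 568, 643, 700.1 and 666. Its change was -1.40 (SE 0.33, adjusted p = 0.0318), a call lost without the first or second STA + Il23mc mouse, without the mouse block (adjusted p = 0.0754) and with 2 or more Cd3 UMIs required (adjusted p = 0.149).

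Cd83 and Pdcd1 were below the floor in some sums. Cd83 was at 116 in Cd3 cells of the healthy mouse but only 6.2, 2.1 and 32.4 CPM in those of the STA + Il23mc mice, against 89.6, 66.7, 46.0 and 51.9 without. Pdcd1 overlapped between both kinds of cell: it was at 20.1, 246, 230 and 187 with Cd3 UMIs and 6.7, 267, 178 and 233 without. Tnfrsf4 was higher in 3 of 4 mice and did not pass (0.50, adjusted p = 0.214), nor did Icos, Tnfrsf9 and Cd274 (-0.18, -0.34 and -0.41; adjusted p = 0.465, 0.38 and 0.253).

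**Figure D4:**
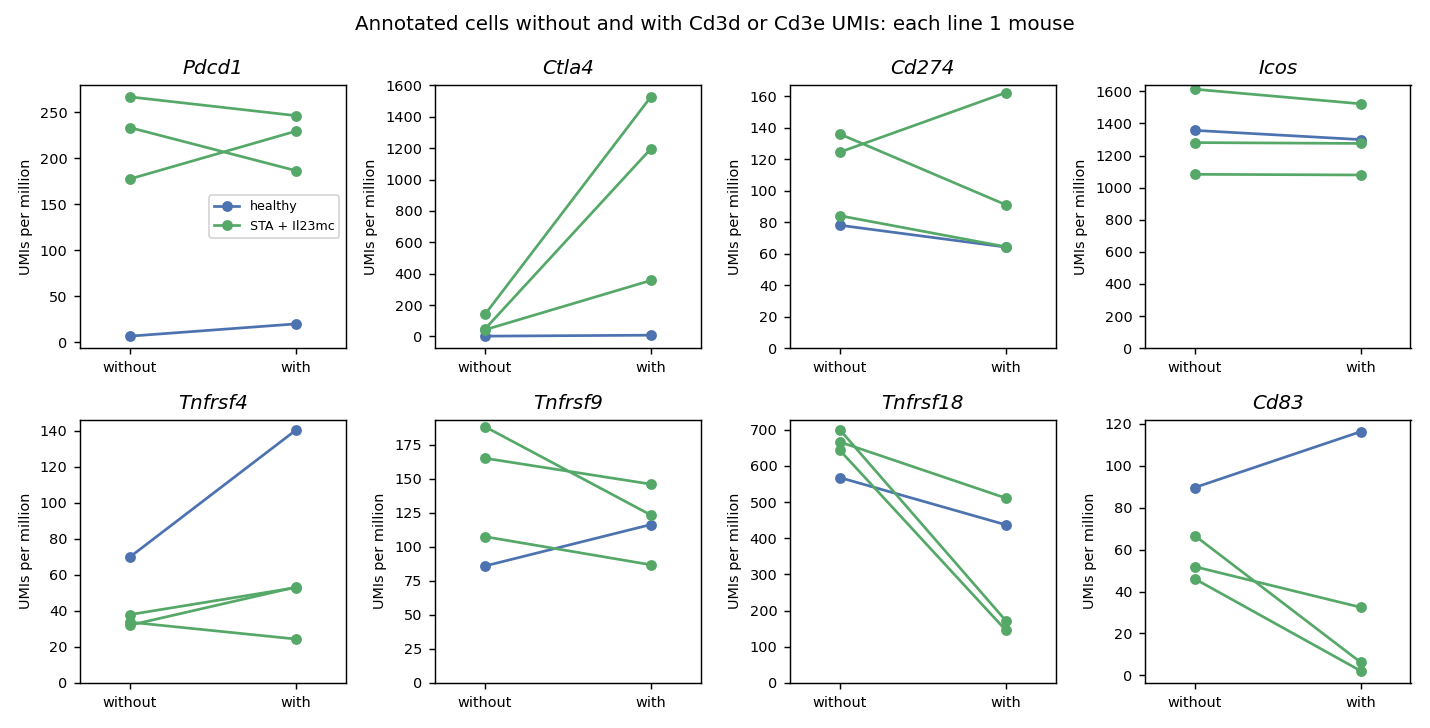
CPM (y axis) of members in annotated cells of all classes without and with a Cd3d or Cd3e UMI (x axis), with a line for each of the 4 mice. Ctla4 reaches 357 to 1526 with Cd3 UMIs in the 3 STA + Il23mc mice, Tnfrsf18 falls in all 4 lines, and the Pdcd1 lines cross.

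Experiment 2 held 1 hashtag a condition, so there is no test, and intervals cover counting error only. In ILC2 sums Pdcd1 was at 70.4, 118 and 120 CPM in healthy, STA (mild) and STA (severe). The ratio to healthy was 1.67 (1.42 to 1.97) for mild and 1.71 (1.49 to 1.97) for severe, which is 0.74 and 0.77 on the log2 scale, where experiment 1 had a log2 change of 2.19. Tnfrsf4 was at 17.7, 44.6 and 64.9, with ratios of 2.53 (1.88 to 3.41) and 3.68 (2.86 to 4.77). Cd83 was at 40.3, 97.2 and 54.5, with ratios of 2.41 (1.98 to 2.94) and 1.35 (1.11 to 1.65). For Pdcd1, Tnfrsf4 and Cd83, and for Ctla4 and Icos given below, both arthritic hashtags lay above healthy beyond counting error. The healthy cells carried the authors' hashtag calls and classes, while the arthritic cells were called here and took their class from neighbours. In this well the calls made here matched the authors' in 70.3% of their cells. The part of this in the differences was not tested.

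Ctla4 held 6, 15 and 19 UMIs in the 3 ILC2 sums, with ratios to healthy of 4.61 (1.69 to 14.5) and 3.36 (1.29 to 10.3). Tnfrsf9 was at 68.9, 89.2 and 64.5, so that the severe hashtag (ratio 0.936, 0.794 to 1.10) was not apart from healthy. Cd274 was at 66.0, 53.4 and 60.5, with ratios of 0.81 (0.655 to 0.996) and 0.917 (0.774 to 1.09). Icos was at 548, 699 and 591, with ratios of 1.28 (1.20 to 1.36) and 1.08 (1.02 to 1.14). Tnfrsf18 was at 557, 571 and 590, with ratios of 1.03 (0.961 to 1.10) and 1.06 (1.003 to 1.12). In ILC3 sums, where classes passed on are less reliable, Pdcd1 was at 30.2, 7.6 and 19.7, Tnfrsf4 at 57.8, 91.1 and 143, and Cd83 at 111, 85.0 and 243. The ratios to healthy there were 0.252 (0.0793 to 0.614) and 0.654 (0.378 to 1.09) for Pdcd1. They were 1.57 (1.14 to 2.14) and 2.47 (1.95 to 3.14) for Tnfrsf4, and 0.765 (0.563 to 1.02) and 2.18 (1.83 to 2.61) for Cd83. The mast cell list summed to 276 CPM in the severe ILC2 sum.

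**Figure D5:**
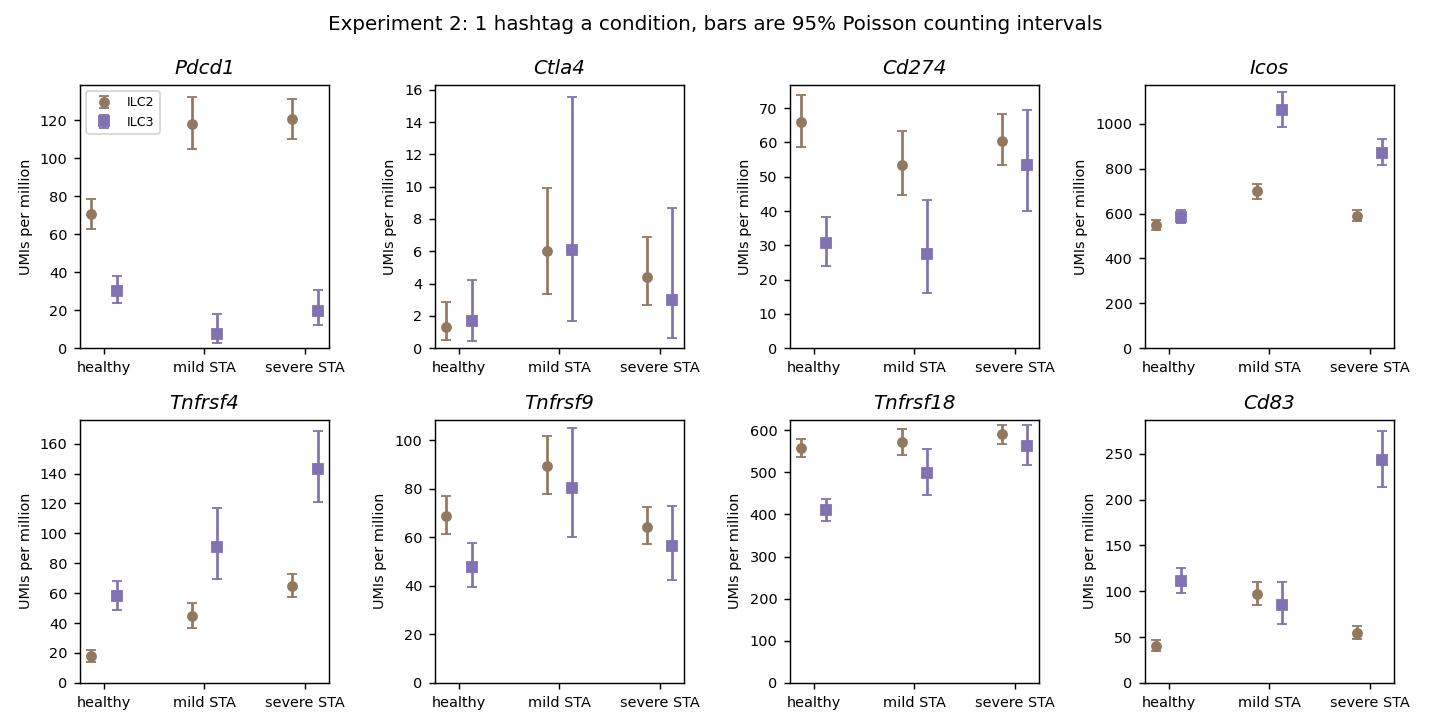
CPM (y axis) in the ILC2 and ILC3 sums of the 3 hashtags of experiment 2 (x axis), with 95% Poisson intervals that cover counting error only. In ILC2 sums Pdcd1 goes from 70.4 to 118 and 120 and Tnfrsf4 from 17.7 to 44.6 and 64.9.

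Genes that act with the members were read from 6 lists, in the same fits. Of the CD28-B7 list, 6 of 15 genes were tested, and from healthy to STA 1 of them was called, Cd28, the activating counterpart of CTLA-4 (-0.82, adjusted p = 0.00575; 383 ± 57.3 to 206 ± 10.4 CPM, SD, n = 3). From healthy to STA + Il23mc, Cd28 fell by 1.08 (adjusted p = 0.000285), and Pdcd1lg2, which encodes PD-L2, rose by 1.43 (adjusted p = 0.0026; 38.3 ± 15.5 to 98.3 ± 11.2). From STA to STA + Il23mc 0 of the 6 passed with edgeR or DESeq2, and 0 had an unadjusted p under 0.05.

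In the TNF superfamily list, 10 genes were tested in ILC2 cells. Tnfsf4, the OX40 ligand, was at 5.66 ± 3.82 CPM in healthy and 21.0 ± 9.44 in STA mice (SD, n = 3), and it passed the filter only through STA mice. The other 9 genes were not called in STA against healthy. Tnfsf9, the 4-1BB ligand, was lower in STA + Il23mc than in STA (-0.95, adjusted p = 0.00463; 65.6 ± 7.43 against 133 ± 4.84), a call lost in 1 of 15 alternatives. Against healthy, 3 genes fell in STA + Il23mc: Tnfsf9 (-1.38), Tnfsf11, which encodes RANKL (-1.32), and Tnfsf14, which encodes LIGHT (-0.99). In ILC3 sums Tnfsf8, the CD30 ligand, was at 256 ± 128 in healthy and 48.9 ± 43.4 in STA + Il23mc mice, and Cd70, the ligand of CD27, at 68.1 ± 12.02 and 12.1 ± 11.7, both below the floor in some STA + Il23mc mice.

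Of the TIGIT and LAG-3 partners, 4 were tested in ILC2 cells, and Lgals3, a LAG-3 ligand, fell in STA (-1.09, adjusted p = 0.0183) and in STA + Il23mc (-1.63, adjusted p = 0.000721) against healthy. Those calls were lost in 5 of 15 and 4 of 18 alternatives. Of 14 TNF receptor signalling genes 0 passed in STA against healthy with edgeR or DESeq2, and 0 had an unadjusted p under 0.05. Rela, an NF-kB subunit, was higher in STA + Il23mc than in STA (0.72, adjusted p = 0.0214), a call lost in 5 of 15 alternatives. Its call against healthy (0.58, adjusted p = 0.0258) was lost in 12 of 18. In ILC3 sums Rel fell (-1.14, adjusted p = 0.00135) and Birc2 rose (1.06, adjusted p = 0.0155), lost in 0 and 3 of 12 alternatives.

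In the list of inhibitory and antigen-receptor type signalling, 14 genes were tested in ILC2 cells. Batf was called higher in STA (0.76, adjusted p = 0.0473), but that call was lost in 13 of 15 alternatives. Tox, a factor known from exhausted T cells, was called lower in STA + Il23mc than in STA (-0.71, adjusted p = 0.0425), and that call was lost in 9 of 15. Il2ra, from the T regulatory list, rose in STA + Il23mc ILC2 cells from 579 ± 44.8 to 909 ± 120 CPM (0.80 against healthy, adjusted p = 0.000908), a call lost in 2 of 18 alternatives. Foxp3 had 0 UMIs in every ILC2 sum of experiment 1. Cells with Cd3 UMIs held more Lgals3 (2.24), Irf4 (2.16), Batf (1.37) and Cd226 (1.33), and less Cd27 (-2.07) and Nr4a2 (-1.33). Those calls were lost in 1, 3, 3, 3, 4 and 5 of 9 alternatives.

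For the 4 members with the most UMIs, the tested genes with the most similar pattern over the 9 ILC2 sums were listed by Pearson's r of log2 values, as a description. Pdcd1 was followed by Zcchc9 (0.978), Epas1 (0.961) and Lyrm4 (0.961). Icos was followed by Serpinb6b (0.966), Iigp1 (0.956) and Man2a2 (0.952), Tnfrsf9 by Stxbp6 (0.965), Smox (0.95) and Creb3l2 (0.942), and Tnfrsf18 by Sdf4 (0.983), Tph1 (0.962) and Gab2 (0.947). Sdf4, the nearest in pattern to Tnfrsf18, is also a neighbour of the pair: it ends 0.232 kb before the start of Tnfrsf4. These r are the highest of about as many values as genes tested, and the 9 sums share 3 wells and their depths.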

How the data were processed

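Deposited 10x Genomics 3′ UMI counts (whole-number counts per gene and cell) were used as the authors deposited them. Per the file headers Cell Ranger 6.1.2 made them, while the submitters' processing notes name Cell Ranger 6.0.6 and the build mm10. A table by the authors lists kept cells with their annotation and a deposited mitochondrial fraction. Whether counting used strand is not given in the sources used here.

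HTODemux in Seurat 5.3.0 (quantile 0.99) assigned hashtags; it also removed doublets (191 to 1156 a well) and matched the authors' calls in 70.3 to 98.6% of cells; annotated cells kept the authors' calls. Other cells needed 2000 UMIs, 700 genes and a mitochondrial share of 10% or less. Their class was that of most of 15 neighbours, found with scikit-learn 1.9.0 in 30 principal components (scanpy 1.11.5, 2000 variable genes, cells scaled to 10000 counts). Raw UMIs were summed per hashtag and class where at least 20 cells were present and tested with edgeR 4.0.16 (quasi-likelihood, TMM, filterByExpr; R 4.3.3), with all 9 mice of experiment 1 in 1 ILC2 fit. Genes below the filter's floor in a mouse of either group compared are described without a test. The fits were tested on simulated data. CPM values divide by the sum's UMIs, while fitted changes use TMM-scaled totals and can differ from ratios of CPM. Figures used matplotlib 3.10.9.

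Alternatives were DESeq2 1.42.0, upper-quartile factors, no filter, each mouse left out, a replicate block, and other cell sets. Hashtag numbers do not pair mice: deviations of same-numbered mice correlated at -0.053 to 0.148. Beside the members, up to 4 genes of each pathway list per comparison are named, those with the largest change among genes past the threshold with at least 20 CPM in 1 group, and for 4 members the 3 genes closest in pattern. The members and lists were chosen with earlier results of these data known. Fibroblast libraries were not used.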

Additional observations from a re-analysis of the deposited data

Results flagged for a closer look

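For Cd83 the fitted changes in ILC3 and ILC2 cells differed, in a test of the difference itself over 6 mice. The change from healthy to STA + Il23mc in ILC3 minus that in ILC2 was -1.81 on the log2 scale (edgeR adjusted p = 0.00892). For Tnfrsf4 the fitted difference was -2.67. Its test is not read, since Tnfrsf4 was partly below the floor of the ILC3 comparison. In the STA + Il23mc ILC3 sums Tnfrsf4 rests on 3 to 11 and Cd83 on 5 to 13 UMIs a mouse. The lowest of these Cd83 values was 32.4 CPM, beside a floor of 31.8. The Cd83 call in ILC3 cells (-1.26, edgeR adjusted p = 0.0407) was lost in 4 of 12 alternatives. Among these were those leaving out each STA + Il23mc mouse in turn. In ILC2 cells the Cd83 change was not called (0.45, edgeR adjusted p = 0.26). The alternatives cover these separate changes and not their difference, so how firm that difference is was not tested.

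The STA well of experiment 1 enters no comparison of cells with Cd3 UMIs, since that split used annotated cells and this well has none. Of its mice, only the first held more than 20 such cells (112 cells, against 119 in the third healthy mouse when gated alike). In the first STA mouse they carried Pdcd1 at 238, Ctla4 at 545, Tnfrsf4 at 645, Tnfrsf9 at 581 and Tnfrsf18 at 512 CPM. The same genes were at 61.4, 8.4, 110, 97.7 and 274 in the healthy mouse. They came with 104 Foxp3 UMIs against 4. Mast cell and macrophage lists summed to 301 and 245 CPM there. With 1 mouse a condition this difference was not tested.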

How the results depend on the processing

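The members called numbered 5 in STA against healthy, 3 in STA + Il23mc against STA, 5 in STA + Il23mc against healthy, 5 in ILC3 and 2 in the Cd3 split. These counts include the members that passed the filter through 1 group only, whose single tests are not read (Ctla4 throughout, Pdcd1 and Tnfrsf4 in ILC3, Pdcd1 and Cd83 in the Cd3 split). Leaving out each mouse gave 4 to 6, 2 to 4, 4 to 6, 2 to 5 and 1 to 3, and for all genes 168 to 301 (of 291), 122 to 163 (of 188), 441 to 626 (of 683), 213 to 353 (of 372) and 27 to 1369 (of 551). With all cells of a hashtag, 0, 1 and 2 members passed in the 3 ILC2 comparisons, and 16 and 107 genes in the first 2. With no filter on low counts, 617, 412 and 1303 genes passed in the first 2 comparisons and the Cd3 split. With 1 rule for hashtags and classes, 190 genes passed in STA against healthy and 3 members in STA + Il23mc against healthy. With Cd3 cells kept, 125 genes passed in STA + Il23mc against STA and 1691 in ILC3. In ILC2-1, ILC2-2 and ILC2-3 alone, 216, 367 and 247 genes passed (7.59, 8.64 and 7.92% of those tested). The 1 member called in ILC2-1 was Pdcd1, and those in ILC2-2 were Pdcd1, Ctla4, Tnfrsf9 and Tnfrsf4. All of these had healthy mice below the filter's floor, so their tests are not read. In ILC2-3, 2 members passed, Icos and Pdcd1. Without cells of other types, 3 members passed in ILC3. With 2 or more Cd3 UMIs (Cd3g included, which ILCs express widely), 1 member and 102 genes passed. The hashtag number as a block, with no pairing behind it, gave 292, 197, 698 and 357 genes and 5, 4, 5 and 5 members, where Icos passed in STA + Il23mc against STA (0.50, adjusted p = 0.0426). Without the replicate block of the Cd3 split, where the pairing is by mouse, 0 members and 355 genes passed. Directions turned as follows, the cause not tested: with all cells of a hashtag, Icos -0.11 and Tnfrsf18 -0.059 in STA against healthy, Tnfrsf18 0.24 in STA + Il23mc against STA, and Tnfrsf4 -0.78 and Cd83 -0.36 in STA + Il23mc against healthy; in STA + Il23mc against STA, Tnfrsf9 -0.001 without STA mouse 2 or STA + Il23mc mouse 3, -0.19 with Cd3 cells kept and -0.063 with 1 rule, and Tnfrsf18 0.016 and 0.019 without the same mice (leaving out each mouse, -0.001 to 0.393 and -0.058 to 0.019); Tnfrsf18 -0.18 in ILC2-3 alone and 0.073 in ILC3 without STA + Il23mc mouse 1 (range -0.258 to 0.073); Lgals3 0.51 in ILC3 with Cd3 cells kept; Pdcd1 in the Cd3 split 0.042 with DESeq2, and 0.11 and 0.15 without STA + Il23mc mouse 1 or 3 (range -0.168 to 0.146). Of these, only Tnfrsf4 and Lgals3 had passed. Over all members and alternatives, 471 values kept direction and side of the threshold, 42 lost and 15 gained a call, and 16 turned. Depth limits Ctla4, Tigit, Lag3 and the ILC3 sums of STA + Il23mc mice.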
